A study of Rattus norvegicus with 9 samples.

Results

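Egr1, Egr2, Egr3 and Egr4, the 4 early growth response transcription factors, were described on 9 arrays of rat brain after sham surgery or stroke. So were Nab1 and Nab2, the corepressors that bind Egr1, Egr2 and Egr3. Every non-control probe whose transcript accession maps to 1 of these 6 genes was taken, whatever its signal, which gave 7 probes for 6 of the 15168 genes named on the array. Egr3 had 2 probes (A_64_P091765, called the first here, and A_64_P128219), and Egr1 (A_64_P082693), Egr2 (A_42_P473594), Egr4 (A_42_P708068), Nab1 (A_44_P470808) and Nab2 (A_64_P144913) had 1 each. Of all 30367 probes, 12362 got no gene symbol from the table of names, and further probes of these genes could be among them. Of the 7 probes, 6 were bright enough to be tested, and the Nab1 probe was not. The arrays came from male Sprague Dawley rats in 3 groups of 3, namely sham surgery, occlusion of the middle cerebral artery (MCAO) with reperfusion and saline vehicle, and MCAO with salidroside. MCAO, a common stroke model, cuts off blood to parts of the cortex and the striatum, and salidroside is a glycoside of Rhodiola roots. Both MCAO groups were injected intraperitoneally once daily for 6 days, the salidroside group with 50 mg/kg, and the first injection came 1 h after reperfusion. Total RNA came from dissected brain, labelled ischemic brain for the MCAO rats and sham brain for the others, and the labels name no brain region, no age and no injection for the sham rats.

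Egr proteins carry zinc fingers that bind GC-rich DNA, and their genes are switched on within minutes by synaptic activity, growth factors or injury. Serum response factor, acting at CArG boxes, and CREB, acting at cyclic AMP response elements, carry much of that induction in neurons. Nab1 and Nab2 bind an inhibitory domain of Egr1, Egr2 and Egr3 and repress their targets, Egr4 lacks that domain, and Nab2 is itself an Egr target in several cell types.

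The promoters of Egr2 and Egr4 are shown because these genes had the widest differences between groups. They are RefSeq sequences on the assembly GRCr8 and run from 250 bases before the gene's start to 50 bases after it, in the gene's 5′ to 3′ direction. The Egr2 window lies on the minus strand at chr20:21054392-21054691 and the Egr4 window on the minus strand at chr4:119607768-119608067. Capitals mark CArG boxes and TGACG, the core of the cyclic AMP response element, which reads CGTCA where it lies on the opposite strand.
Egr2 promoter: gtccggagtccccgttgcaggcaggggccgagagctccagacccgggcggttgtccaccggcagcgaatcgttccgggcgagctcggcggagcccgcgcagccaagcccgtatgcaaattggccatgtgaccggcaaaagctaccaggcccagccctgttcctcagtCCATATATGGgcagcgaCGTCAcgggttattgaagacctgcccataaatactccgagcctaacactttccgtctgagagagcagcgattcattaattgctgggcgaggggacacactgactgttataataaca
Egr4 promoter: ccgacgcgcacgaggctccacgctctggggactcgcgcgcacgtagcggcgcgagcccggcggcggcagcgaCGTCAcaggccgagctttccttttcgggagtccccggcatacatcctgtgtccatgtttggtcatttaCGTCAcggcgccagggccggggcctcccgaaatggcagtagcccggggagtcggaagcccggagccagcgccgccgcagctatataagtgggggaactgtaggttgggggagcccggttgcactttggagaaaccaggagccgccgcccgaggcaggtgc
The Egr2 window held 1 CArG box, at bases -83 to -74 from the start, and 1 TGACG on the opposite strand at -66 to -62. The Egr4 window held no exact CArG box and 2 TGACG matches on the opposite strand, at -178 to -174 and at -110 to -106. CArG boxes were searched only as CCWWWWWWGG, with W for A or T. Near matches, such as ccatgtttgg in the Egr4 window, were not counted. The promoter of Egr1 held 2 CArG boxes, of which 1 lay at -83 to -74 as in Egr2, and 2 TGACG matches, of which 1 lay at -66 to -62 as in Egr2. A CArG box on either strand was found in 1.64% of 33469 rat promoters of that length, and TGACG on either strand in 21.2%. The full element TGACGTCA, which contains TGACG, was in none of the 5 member promoters searched, those of Egr1, Egr2, Egr4, Nab1 and Nab2 (Egr3 was not analysed here), and in 1.83% of all promoters. The Egr binding sequence, searched as GCGTGGGCG or GCGGGGGCG on both strands, occurred 3 times in the Nab1 promoter and in no other of these 5, against 3.2% of all promoters. The Nab2 promoter held none of these sequences, and Nab1 also held 1 TGACG. A match describes letters in the window and is not a measured binding site.

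Sham replicate 3, scanned on a second day, had 65.63% of its probes well above background, and the other 8 arrays had 81.97% to 88.53%. The neuronal markers Snap25, Syt1 and Map2, the astrocyte markers Gfap and Aqp4 and the oligodendrocyte marker Mbp were well above background on all 9 arrays. Values are log2 signals relative to the 75th percentile of the same array, so 0 stands for that percentile, and levels of different probes are not set against each other. Differences between groups were tested with limma over all 25576 probes that passed the background filter, and a probe was called at an adjusted p under 0.05. Sham replicate 1 stood apart in striatal markers (summed level 46, against 11 and 11.1 on the other sham arrays). Choroid plexus markers were summed at 91.2 in vehicle replicate 3, 86.6 in salidroside replicate 3 and 20.1 in vehicle replicate 1, and at 0.438 to 1.12 on the other 6 arrays. Scan identifiers put the 9 arrays on 4 slides, and no slide held both sham and MCAO arrays, so slide and MCAO cannot be told apart.

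After MCAO with vehicle, transcripts of Egr2 (9.2-fold), Egr4 (9.12-fold) and Egr1 (2.45-fold) fell against sham. Egr3 and Nab2 did not pass the test, and Nab1 was close to background. With salidroside, the levels of Egr1, Egr2 and Egr4 lay above those of every vehicle array, but 0 of the 6 tested probes passed the test against vehicle over all probes. The RNA is from whole tissue, so fewer cells of a type and less RNA per cell cannot be told apart.

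Egr2, a zinc finger factor of active neurons that also drives myelination by Schwann cells, had 10 spots on each array. Its scaled log2 signal was 0.58, 0.04 and -0.04 on the sham arrays, -1.97, -3.19 and -3.86 on the vehicle arrays and 0.74, 0.95 and 0.81 on the salidroside arrays. Every vehicle array lay below every sham and every salidroside array, and the vehicle arrays spread more widely than those of the other groups. The unscaled processed signal of Egr2 was 113.1 to 399.3 in the vehicle group, 482.5 to 3506 in sham and 2086 to 2567 with salidroside. Replicate spots of Egr2 within an array had an SD of 0.0368 to 0.0823 (9 or 10 spots), well under the SD of 0.96 between the vehicle arrays (n = 3). Egr2 fell by 3.20 in vehicle against sham, a 9.2-fold difference (SE 0.42, 95% interval -4.16 to -2.24, limma adjusted p = 0.0099). This call was lost with another background correction (normexp, limma adjusted p = 0.0775). It was also lost with vehicle replicate 3 and salidroside replicate 3 both left out (limma adjusted p = 0.0679). Against vehicle, Egr2 stood 3.84 higher with salidroside, 14.3-fold (SE 0.42, 95% interval 2.88 to 4.80, limma adjusted p = 0.0687), the fourth smallest p of 25576 probes, and this was not called.

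Egr4, the family member without the Nab-binding domain, is known mainly from neurons. Its scaled log2 signal was 3.27, 3.43 and 3.48 on the sham arrays, 1.24, 0.36 and -0.99 on the vehicle arrays and 3.52, 3.32 and 3.23 on the salidroside arrays. The sham and salidroside arrays lay within a narrow band and overlapped, and all 3 vehicle arrays lay below them. Processed signals of Egr4 ran from 5509 to 22620 in sham, from 991.8 to 3695 with vehicle and from 11150 to 17580 with salidroside. Egr4 fell by 3.19 in vehicle against sham, 9.12-fold (SE 0.46, 95% interval -4.25 to -2.13, limma adjusted p = 0.0145). Against vehicle its salidroside mean was 3.15 higher, 8.88-fold (SE 0.46, 95% interval 2.09 to 4.21, limma adjusted p = 0.145), without a call. The fall of Egr4 was not called without sham replicate 2 (limma adjusted p = 0.0552) or without sham replicate 3 (limma adjusted p = 0.0794). Nor was it called with another background correction (normexp, limma adjusted p = 0.0998).

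Egr1, the best known activity-dependent member, whose protein drives synaptic, growth and inflammatory genes, gave a dimmer probe. Its scaled log2 signal was -2.16, -1.55 and -1.69 on the sham arrays, -2.76, -3.31 and -3.21 on the vehicle arrays and -1.79, -1.23 and -1.10 on the salidroside arrays. The vehicle arrays again lay below all others, and the sham and salidroside arrays overlapped. Egr1 fell by 1.29 in vehicle against sham, 2.45-fold (SE 0.25, 95% interval -1.87 to -0.71, limma adjusted p = 0.0411). This call lay close to the threshold and was lost in 13 of 21 alternative analyses, which included leaving out any 1 of sham replicates 2 and 3, any vehicle array, or salidroside replicate 2 or 3 (changes from -1.46 to -1.17). The salidroside mean of Egr1 was 1.72 above vehicle, 3.3-fold (SE 0.25, 95% interval 1.14 to 2.30, limma adjusted p = 0.145), and was not called.

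Egr3, an activity-dependent member that also acts in muscle spindles and lymphocytes, was near the lower end of the measured range on both probes. The signal was 2.44% to 6.65% of the array's 75th percentile and well above background on all 9 arrays. On the first Egr3 probe the scaled log2 signal was -5.36, -4.61 and -4.79 in sham, -4.36, -5.09 and -4.34 with vehicle and -4.28, -3.99 and -3.91 with salidroside. On the second it was -5.0, -4.34 and -5.07 in sham, -4.76, -5.21 and -5.17 with vehicle and -4.67, -4.51 and -4.14 with salidroside. Sham and vehicle arrays overlapped on both, while every salidroside array lay above every vehicle array by a small margin, 0.05 on the first probe and 0.08 on the second. The change in vehicle against sham was 0.32 on the first probe (95% interval -0.29 to 0.94, limma adjusted p = 0.51) and -0.24 on the second (95% interval -0.80 to 0.32, limma adjusted p = 0.603), and the first turned to -0.17 with another background correction (normexp). The difference of salidroside from vehicle was 0.53 on the first probe (limma adjusted p = 0.913) and 0.60 on the second (limma adjusted p = 0.826). Over the 9 arrays the 2 Egr3 probes had a Pearson r of 0.66.

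Egr2 was also set against Egr3 within each array, a pair chosen with earlier results of these data known. The difference Egr2 minus Egr3 (first probe) on an array was 4.64 to 5.94 in sham, 0.47 to 2.39 with vehicle and 4.72 to 5.03 with salidroside. With the second Egr3 probe it was 4.38 to 5.59, 1.30 to 2.78 and 4.95 to 5.46. With both probes the vehicle arrays lay below both other groups, and the values are a description, since an exact permutation test of 3 arrays against 3 cannot give a two-sided p under 0.1.

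Nab2 is the corepressor whose gene Egr factors can induce. Its scaled log2 signal was 1.94, 1.75 and 1.81 on the sham arrays, 1.44, 1.38 and 0.40 on the vehicle arrays and 2.37, 1.59 and 1.67 on the salidroside arrays. The vehicle arrays lay below all others, vehicle replicate 3 by the widest margin, and salidroside replicate 1 was the highest of all 9. Nab2 had a change of -0.76 in vehicle against sham, 1.69-fold lower (SE 0.31, 95% interval -1.47 to -0.05, limma adjusted p = 0.188), and of 0.80 in salidroside against vehicle (SE 0.31, 95% interval 0.09 to 1.51, limma adjusted p = 0.802). Neither was called, and without vehicle replicate 3 the changes were -0.43 and 0.47.

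Nab1, the second corepressor, was well above background on sham replicate 1 and salidroside replicate 1 and on 0 of 3 vehicle arrays. Its processed signal was 3.272 to 13.69 over the 9 arrays, and 6 of the 9 values lay below 8.39, the lowest signal of any probe well above background on any array. It was therefore not tested, and no fold is given, since 2 of the 3 sham arrays were not well above background either.

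**Figure D1:**
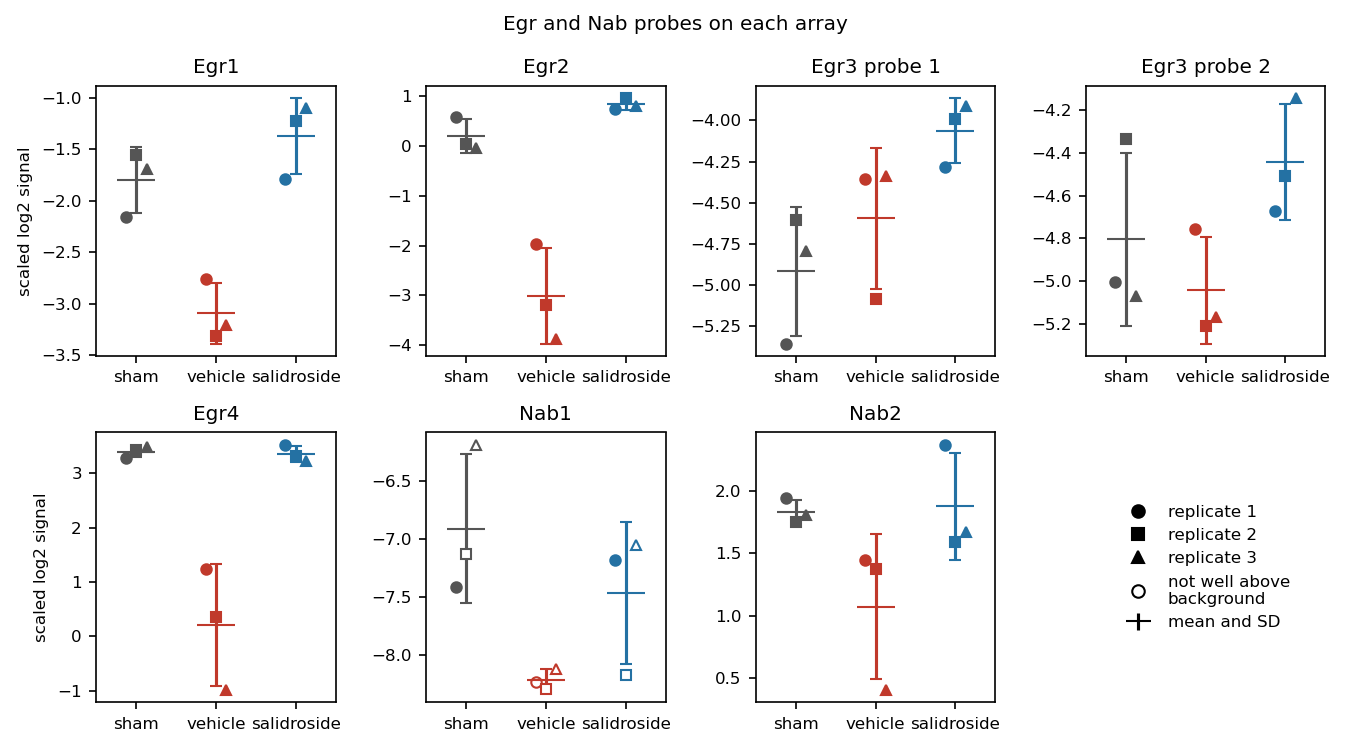
Scaled log2 signal (log2 signal minus the array's 75th percentile, vertical axis) of the 7 Egr and Nab probes on each array, by group, with replicates 1, 2 and 3 as circle, square and triangle, hollow where not well above background. Horizontal bars are group means and vertical bars the SD (n = 3). Vehicle arrays lie below both other groups for Egr1, Egr2, Egr4 and Nab2, and the vehicle points of Egr2 spread from -1.97 to -3.86.

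Ordered by their means, Egr2 stood at 0.83 ± 0.107 with salidroside, 0.19 ± 0.339 in sham and -3.01 ± 0.959 with vehicle (SD, n = 3), and every salidroside array lay above every sham array by at least 0.16. Egr4 stood at 3.39 ± 0.106 in sham, 3.36 ± 0.149 with salidroside and 0.21 ± 1.12 with vehicle, and the first 2 did not differ beyond their spread. Egr1 stood at -1.37 ± 0.367 with salidroside, -1.80 ± 0.319 in sham and -3.09 ± 0.296 with vehicle, and its upper 2 groups overlapped. Nab2 stood at 1.88 ± 0.429 with salidroside, 1.84 ± 0.0959 in sham and 1.07 ± 0.581 with vehicle, and its upper 2 overlapped as well. In the vehicle group, replicate 1 was the highest and replicate 3 the lowest for Egr2, Egr4 and Nab2.

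In vehicle against sham, 3 of the 6 tested probes were called lower and 0 higher, beside 1.49% of all 25576 tested probes called lower. All 3 called probes belong to Egr transcription factors, and 4 of the 6, the same 3 and Nab2, had every vehicle array below every sham array, which held for 9.71% of all tested probes. The median change of all probes was 0.10, and that of the 4 Egr genes, with the first probe for Egr3, was -2.24. Relative to the median of all probes, Egr2 differed by -3.30, Egr4 by -3.29, Egr1 by -1.39 and Nab2 by -0.86.

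In salidroside against vehicle, 0 of the 6 tested probes were called by limma, beside 0.0117% of all tested probes (3 of 25576) in either direction. At an unadjusted limma p under 0.05 there were 1487 probes in all, and 5 of the 6 member probes were among them, all but the first Egr3 probe. All 6 had every salidroside array above every vehicle array, against 5.65% of all tested probes. The gap between the groups was 2.72 for Egr2, 1.99 for Egr4 and 0.97 for Egr1, and 0.15 or less for Nab2 and both Egr3 probes. This comparison uses the same 3 vehicle arrays as vehicle against sham, so a low value on them enters both, and the values are given side by side only. The call depended on the analysis for Egr2, which passed with scaling to each array's median (3.88, limma adjusted p = 0.0209), in the authors' deposited value table (3.87, limma adjusted p = 0.0378), with probes detected on all 9 arrays (3.84, limma adjusted p = 0.0357) and without vehicle replicate 1 (4.36, limma adjusted p = 0.0111). Egr1 passed with median scaling (1.76, limma adjusted p = 0.034) and in the deposited table (1.77, limma adjusted p = 0.0378), and Egr4 passed without vehicle replicate 1 (3.67, limma adjusted p = 0.0425). In no analysis did Egr3 or Nab2 pass.

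The 6 MCAO arrays lay on 2 slides, each with both treatments. On slide 1, with 2 arrays of each treatment, Egr2 was 3.80 higher with salidroside than with vehicle, and on slide 3, with 1 of each, 3.93 higher. Egr4 differed by 3.15 on slide 1 and 3.16 on slide 3, and Egr1 by 1.82 and 1.53. Over all 6 arrays the differences were 3.84 for Egr2, 3.15 for Egr4 and 1.72 for Egr1, so that of Egr1 was smaller on slide 3. Nab2 differed by 0.71 and 1.00, the first Egr3 probe by 0.40 and 0.80 and the second by 0.64 and 0.54.

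In salidroside against sham, 0 of the 6 tested probes were called by limma, beside 1.09% of all tested probes (279 of 25576) in either direction. Over all probes 3747 had an unadjusted limma p under 0.05, and of the members the first Egr3 probe did. Its salidroside arrays lay above its sham arrays by 0.86 on average, 1.81-fold (SE 0.27, 95% interval 0.24 to 1.47, limma adjusted p = 0.172). It and Egr2 were the 2 of 6 probes with every salidroside array above every sham array, which held for 13.6% of all tested probes. Egr2 differed from sham by 0.64 (95% interval -0.32 to 1.60), Egr1 by 0.43 (-0.15 to 1.01), the second Egr3 probe by 0.36 (-0.20 to 0.93), Nab2 by 0.04 (-0.67 to 0.75) and Egr4 by -0.04 (-1.10 to 1.02). The intervals are wide, so these values do not show that the groups are alike. The signs of Egr4 and Nab2 here turned under other scalings.

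**Figure D2:**
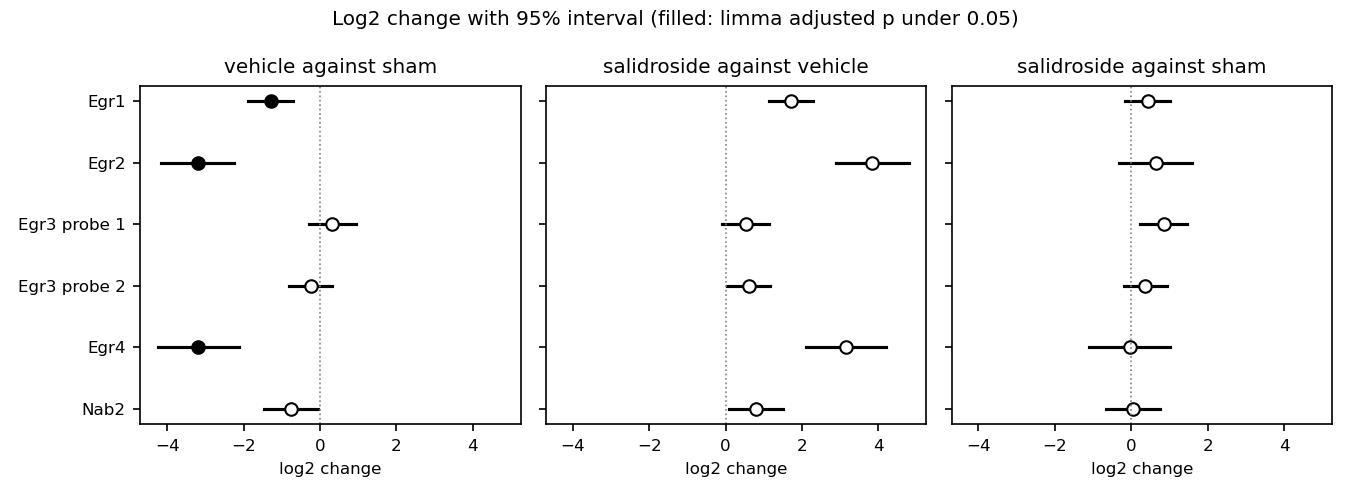
Log2 change of the 6 tested probes (horizontal axis) in vehicle against sham, salidroside against vehicle and salidroside against sham, as points with the 95% interval of the limma fit, filled where the adjusted p is under 0.05. Only Egr1, Egr2 and Egr4 in vehicle against sham are filled, and in salidroside against vehicle the interval of Egr2 runs from 2.88 to 4.80.

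Across all 9 arrays Egr2 and Egr4 had a Pearson r of 0.97 (Spearman rho 0.58) and Egr1 and Egr2 an r of 0.93 (rho 0.83). For Egr4 and Nab2 r was 0.87 (rho 0.87) and for Egr2 and Nab2 0.81 (rho 0.57). The first Egr3 probe had an r of 0.20 with Egr2, 0.44 with Egr1 and -0.12 with Nab2, and the second had higher values, 0.65 with Egr2, 0.79 with Egr1 and 0.38 with Nab2. These are descriptions over arrays of 3 groups that share platform and scaling, and the 3 vehicle arrays are the low points of Egr1, Egr2, Egr4 and Nab2. Among 15575 other probes with a gene name, the patterns most like Egr1 were those of Nr4a1, an orphan nuclear receptor also induced by activity (r 0.97 over 9 arrays), Arc, which acts at active synapses (0.97), Pak1, a kinase of the actin cytoskeleton (0.96), Lasp1, an actin-binding protein (0.95), and Csrnp1 (0.95). For Egr2 they included Kcnh4, a potassium channel (0.97), Arc (0.96), Nr4a1 (0.95) and Dnajb5, a heat shock cochaperone (0.95). For Egr4 they were Jph3, a junctophilin of neurons (0.97), Ndrg3 (0.97), Arc (0.97), Acat2, an enzyme of acetyl-CoA metabolism (0.97), and Rgs4, a regulator of G protein signalling (0.97). The Spearman rho of the genes on these lists ran from 0.63 (Arc with Egr4) to 0.98 (Pak1 with Egr1). Arc was on all 3 lists, and its change was -3.23 in vehicle against sham and 3.41 in salidroside against vehicle. For Nr4a1 these were -2.32 and 2.40, for Rgs4 -1.37 and 1.33 and for Kcnh4 -1.01 and 1.11. Smaller values came with equally high r, -0.45 and 0.53 for Jph3 and -0.38 and 0.49 for Pak1.

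Known targets and regulators of the Egr factors were described from 5 lists, 1 probe per gene. Of all 25576 tested probes, 1.49% were called lower and 1.02% higher in vehicle against sham. In salidroside against vehicle 0.0117% were called in either direction. Of 11 tested neuronal Egr targets, 1 fell and 0 rose in vehicle against sham (median -0.30). Arc fell by 3.23 (SE 0.43, limma adjusted p = 0.0102), while the GABA receptor subunit gene Gabra4 had a change of -1.14 (limma adjusted p = 0.0764) and Dlg4, which encodes the postsynaptic scaffold PSD-95, one of -0.76 (limma adjusted p = 0.102). The Dlg4 probe was dim, with a mean scaled log2 signal of -4.60 with vehicle and -3.84 in sham. In salidroside against vehicle 0 of these 11 were called (median 0.33, 9 above 0), and Arc stood 3.41 higher (SE 0.43, limma adjusted p = 0.087). Dlg4 differed by 0.60 and Syn1, which encodes synapsin of synaptic vesicles, by 0.48.

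Of 11 vascular and inflammatory Egr1 targets, 1 rose and 0 fell in vehicle against sham (median 0.76), beside 1.02% of all tested probes called higher. Cd44, a hyaluronan receptor of glia and leukocytes, rose by 1.64 on its brightest probe (SE 0.31, limma adjusted p = 0.038), but its other 3 probes, from -0.80 to 0.71, were not called. The adhesion molecule gene Icam1 had a change of 0.92 (limma adjusted p = 0.109) and the growth factor gene Fgf2 one of 0.76 (limma adjusted p = 0.126). The Fgf2 probe was dim, with a mean scaled log2 signal of -5.62 with vehicle and -6.38 in sham. In salidroside against vehicle 0 of 11 were called (median -0.32), and Cd44 differed by -1.54 on its brightest probe (limma adjusted p = 0.339) but by 0.07 to 1.31 on its other 3, Vegfa, the vascular growth factor gene, by 0.61 and Pdgfa by 0.30. Of 8 growth-control targets, 1 fell and 0 rose in vehicle against sham (median -0.08), beside 1.49% of all tested probes called lower. Id3, which encodes an inhibitor of DNA binding, fell by 1.71 (SE 0.17, limma adjusted p = 0.00296). The DNA damage gene Gadd45a had a change of 0.88 and was not called (limma adjusted p = 0.144). In salidroside against vehicle 0 of 8 were called (median 0.18). Id3 was also called lower in salidroside against sham (-1.85).

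Of 17 tested regulators upstream of Egr transcription, 0 were called in vehicle against sham by limma (median -0.13) and 0 in salidroside against vehicle (median 0.19, 13 above 0). In vehicle against sham Creb1, which encodes CREB, had a change of 0.80 (limma adjusted p = 0.092), the kinase gene Rps6ka2 one of 0.89 (limma adjusted p = 0.109) and Ntrk2, the receptor of brain-derived neurotrophic factor, one of -1.01 (limma adjusted p = 0.126, its other 2 probes at -0.66 and 0.17). The Creb1 probe was dim, with a mean scaled log2 signal of -4.94 with vehicle and -5.74 in sham. In salidroside against vehicle Bdnf, the neurotrophic factor itself, differed by 1.05 (SE 0.32, limma adjusted p = 0.677), Srf, which encodes serum response factor, by 0.57 (limma adjusted p = 0.766) and the calcium-dependent kinase gene Camk4 by 0.83 (limma adjusted p = 0.892). Of 11 cofactors and other GC-box factors, 0 were called in either comparison (medians 0.05 and 0.08). The chromatin genes Mta2 (-0.33), Rbbp4 (-0.20) and Hdac1 (0.20) had the smallest p-values of that list in vehicle against sham. A dimmer Rbbp4 probe rose by 1.11 (limma adjusted p = 0.0229), so its 2 probes disagreed.

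Markers of several cell types moved with the groups in which the Egr probes differed. The summed level of 8 pan-neuronal markers was 47.5 to 51.9 in sham, 32.1 to 43.2 with vehicle and 41.3 to 51.5 with salidroside. That of 7 cortical projection neuron markers was 22.7 to 40.9, 16.8 to 24.9 and 35.2 to 35.9. All marker sums add linear levels, so the brightest genes weigh most. Among the cortical markers that was Nrgn, with a mean scaled log2 signal of 4.89 in sham, against 1.08 for Neurod6, the next brightest. The vehicle arrays were lower than sham in pan-neuronal markers and lower than salidroside in cortical ones, and sham replicate 1, rich in striatal markers, was low in cortical ones. As the mean log2 level, pan-neuronal markers changed by -0.40 in vehicle against sham and by 0.25 in salidroside against vehicle, and cortical ones by -0.84 and 0.95. In vehicle against sham 1 of the 8 pan-neuronal markers (Thy1) and 1 of the 7 cortical ones (Lamp5) were called lower, beside 1.49% of all tested probes. In salidroside against vehicle 0 of either list were called. Each array's value was also taken relative to its own pan-neuronal mean, a description chosen after seeing the marker sums. On that scale Egr2 differed by -2.80 and 3.60, Egr4 by -2.79 and 2.91 and Egr1 by -0.89 and 1.48. Every vehicle array lay below all others for these genes, and the part of cell content in the differences was not tested. Relative to the cortical mean, Egr2 differed by -2.37 and 2.89 and Egr4 by -2.35 and 2.20, again with every vehicle array below all others, and Egr1 by -0.46 and 0.77, with vehicle and salidroside arrays overlapping. Nab2 differed by -0.36 and 0.56 relative to the pan-neuronal mean and by 0.08 and -0.15 relative to the cortical mean, so its sign turned and its groups overlapped.

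The 3 erythrocyte markers, Hbb, Hbb-b1 and Alas2, had a summed level of 63.9 to 98.7 in sham, 29.7 to 38.2 with vehicle and 64.1 to 113 with salidroside. They were lower on every vehicle array than on every other array, as Egr1, Egr2, Egr4 and Nab2 were. Of all tested probes, 9.71% had every vehicle array below every sham array, and 5.65% had every salidroside array above every vehicle array. By limma, 2 of the 3 erythrocyte markers were called lower in vehicle against sham, beside 1.49% of all tested probes, and 0 in salidroside against vehicle. The part of blood content in the Egr and Nab2 results was not tested. The 4 macrophage markers were summed at 0.995 to 1.62, 1.27 to 3.04 and 0.892 to 2.90. In vehicle against sham 2 of the 4, Cd163 and Cd14, were called higher, beside 1.02% of all tested probes. Cd163 was well above background on only 6 of the 9 arrays, with a mean scaled log2 signal of -7.23 in sham. The filter kept such a probe if 1 group passed, so the size of its change is uncertain. Cd68 (0.26) and Mrc1 (0.46) were not called, and Msr1 was too dim to be tested. The 9 striatal markers had a median change of -0.76 in vehicle against sham and 0.15 in salidroside against vehicle. Their mean log2 level was 1.49 on sham replicate 1 but -1.10 and -1.24 on the other sham arrays. With vehicle it was -1.16, -0.81 and -0.97, within or above the range of those 2 sham arrays. In the same comparisons the 5 astrocyte markers had medians of 0.37 and -0.003 and the 5 oligodendrocyte markers of -0.10 and 0.12. Those of the 6 microglial markers were 0.72 and -0.55 and of the 5 endothelial markers -0.04 and 0.16. The 6 choroid plexus markers had medians of 2.32 and -0.96, with 0 called in either comparison. With vehicle replicate 3 and salidroside replicate 3, the arrays highest in choroid plexus markers, both left out, Egr2 differed by -2.77 in vehicle against sham (limma adjusted p = 0.0679) and by 3.43 in salidroside against vehicle (limma adjusted p = 0.346). Egr4 then differed by -2.59 (called) and 2.62 and Egr1 by -1.24 (limma adjusted p = 0.214) and 1.53.

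**Figure D3:**
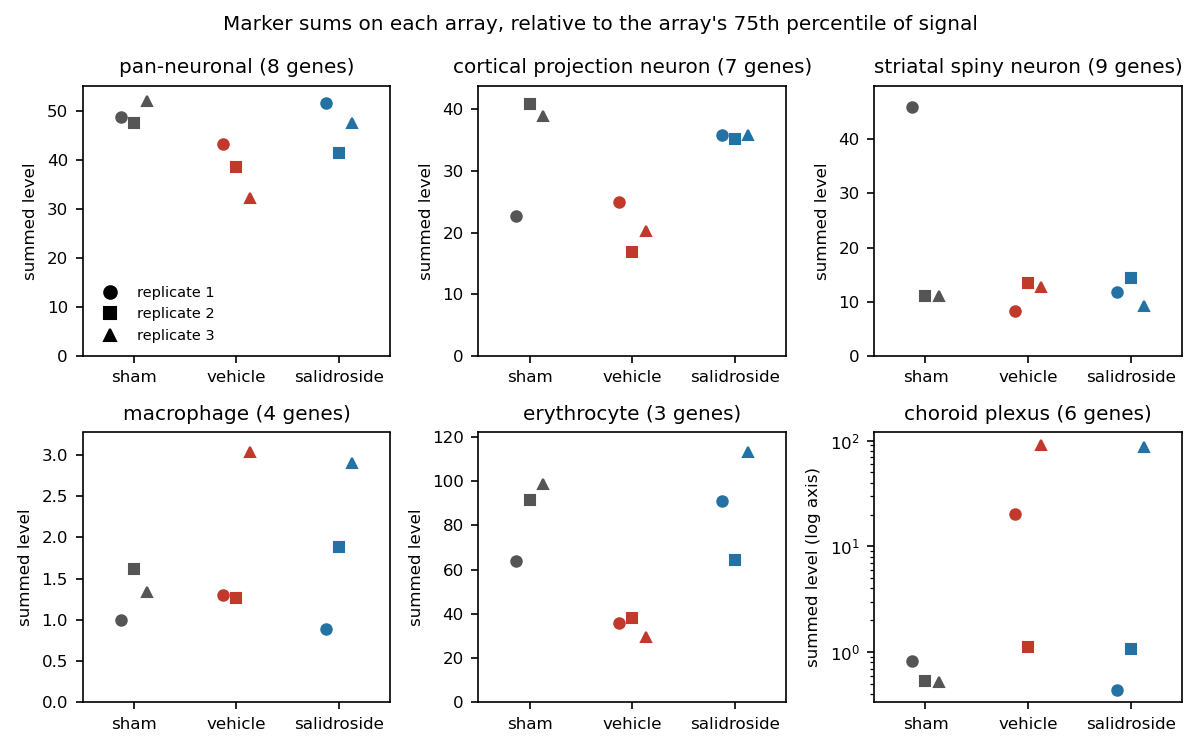
Summed level of the tested markers of 6 cell types on each array, relative to the array's 75th percentile (vertical axis, linear from 0, but a log axis for choroid plexus), by group, with replicates 1, 2 and 3 as circle, square and triangle. The erythrocyte sums of the vehicle arrays, 29.7 to 38.2, lie below those of all other arrays, and vehicle replicate 3 and salidroside replicate 3 stand out in choroid plexus markers.

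**Figure D4:**
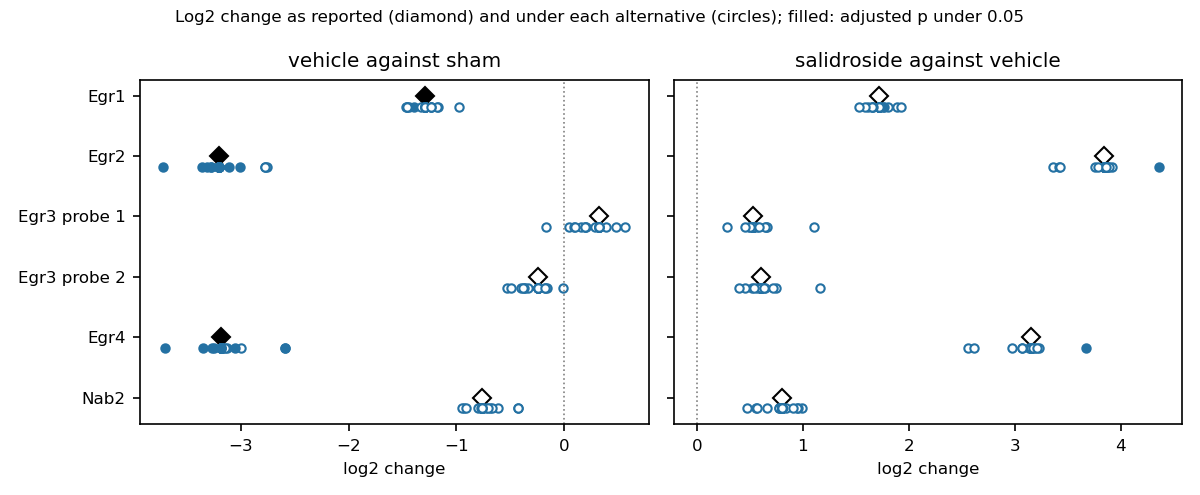
Log2 change of the 6 tested probes (horizontal axis) in vehicle against sham and in salidroside against vehicle, as reported (diamond) and under each alternative analysis (circles), filled where the limma adjusted p is under 0.05. Egr2 stayed between -3.72 and -2.76 in the first comparison and between 3.36 and 4.36 in the second, while the filled points show that its call was lost in 2 analyses of the first and gained in 4 of the second.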

How the data were processed

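Total RNA of 9 rat brains was hybridised to 1-colour (Cy3) Agilent arrays. Per the file headers, the authors extracted signals with Feature Extraction 11.0.1.1, and the processed signal is a fluorescence intensity, background-subtracted within each array and not normalized between arrays. A deposited table gives log2 values for 19477 probes, and its columns match their own arrays at an r of at least 0.99967. Its nearly equal column medians (8.691 to 8.706) show values brought to a common scale between arrays, with no centring per probe. Medians alone do not tell which normalization was used.

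Here the log2 signal minus each array's 75th percentile was used. Spots of 1 probe were averaged without those marked as outliers. Probes well above background on all arrays of at least 1 group were tested (25576 of 30367, of which 69 lacked a value on at least 1 array). R 4.3.3 and limma 3.58.1 fitted the 3 groups together (6 residual and 2.55 prior degrees of freedom), with Benjamini-Hochberg adjustment over all tested probes. The code of the fit was run on simulated data with independent noise and known changes. That simulation held no slide or tissue differences, so it does not cover those of these arrays. The labels give 3 rats per group, each array was taken as 1 rat, and that number limits the precision. Names came from a GRCr8 table by transcript accession, which named 18005 probes.

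The genes, lists and rules were chosen with earlier results of these data known. Of each list the 3 smallest p-values are named, and for likeness the 5 highest r, except that some of these genes are not reported here. Alternatives were other scalings, background corrections, filters, blocks and left-out arrays. The normexp correction, with an offset of 50, used median in place of mean pixel signals, a column not used here. The joint removal of vehicle replicate 3 and salidroside replicate 3 and the values relative to marker means were chosen after seeing the data.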

Additional observations from a re-analysis of the deposited data

How the results depend on the processing

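The number of arrays and the signal of dim probes limit these results, and the cause of a changed count was not tested. Over all probes, vehicle against sham called 642 (262 higher, 380 lower). This became 10 with normexp (0 higher, 10 lower), 1052 with quantile normalization (465 higher, 587 lower), 1262 in the deposited table (620 higher, 642 lower), 295 with no filter, 289 with slide as a random block, 347 with only the 2 groups compared, 113 (without sham replicate 3) to 1078 (without salidroside replicate 1) with 1 array left out and 40 without vehicle replicate 3 and salidroside replicate 3. Salidroside against vehicle called 3, and this became 0 with normexp, no filter, only the 2 groups compared, slide as a fixed block and the joint removal, 7 with quantile normalization, 11 with median scaling, 18 in the deposited table, 5 with probes detected on all 9 arrays and 0 to 8 with 1 array left out. Salidroside against sham called 279 (64 higher, 215 lower), and this became 0 with normexp, 609 with quantile normalization (278 higher, 331 lower), 639 with median scaling (352 higher, 287 lower), 585 in the deposited table, 177 with no filter, 116 with only the 2 groups compared, 81 to 1139 with 1 array left out and 16 with the joint removal.

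Of the member probes, 3 were called in vehicle against sham. This became 0 with normexp, 1 with the joint removal and 1 to 3 with 1 array left out (1 without sham replicate 2 or sham replicate 3). In salidroside against vehicle 0 became 2 with median scaling, 2 in the deposited table, 1 with probes detected on all 9 arrays and 0 to 2 with 1 array left out. In salidroside against sham it was 0 throughout. Egr1, Egr2, Egr4 and Nab2 kept their sign in vehicle against sham and in salidroside against vehicle under every alternative setting run. Nab2 did not when taken relative to the cortical marker mean (0.08 and -0.15). The first Egr3 probe turned to -0.17 in vehicle against sham with normexp. In salidroside against sham, Egr4 turned to 0.008 with quantile normalization, 0.011 in the deposited table and 0.025 with the joint removal, and Nab2 to -0.085 with median scaling. With 1 array left out these ranged from -0.12 to 0.025 for Egr4 and -0.205 to 0.186 for Nab2. Normexp moved the median of all probes to -0.15, 0.58 and 0.48 in the 3 comparisons, and relative to it Egr2 differed by -2.61 and 2.78, Egr4 by -2.85 and 2.39 and Nab2 by -0.46 and 0.08 in the first 2.

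With the replicate number as a block (replicate block), 290 probes were called in vehicle against sham, 0 in salidroside against vehicle and 132 in salidroside against sham. Egr2 (limma adjusted p = 0.0231) and Egr4 (0.0376) kept their calls and Egr1 did not (0.0803). No pairing by number was seen, as 2 of 9 same-numbered pairs had a correlation over 0.1 and 2 of 9 arrays correlated best with their own number. With so few arrays this check cannot exclude a pairing.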
